A study of Mus musculus with 24 samples.

Results

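The response of messenger RNA levels to Torin1 in control cells was measured by RNA-seq in 6 libraries, 3 from cells given DMSO and 3 from cells given Torin1, out of the 24 samples of the series. The libraries were taken by their labels and column names, with no measured value used in the choice. The study asked how the cap-binding protein eIF4E3 changes gene expression when mTOR is inhibited, and its other samples are RNA-seq of eIF4E3 knockout (KO) cells and ribosome profiling (Ribo-seq) of both kinds of cell. N2a is a mouse neuroblastoma line. The control (ctrl) cells were N2a cells transfected with the empty pSpCas9(BB)-Puro vector, which expresses Cas9 but no guide, and selected with puromycin as a pool over repeated rounds, and the KO cells carried guides to Eif4e3 in the same vector. Torin1 was given at 250 nM for 2 h, and the vehicle, DMSO, for the same time. Each replicate was, per the labels, another passage of the same cells, so that the spread between replicates is a spread between passages of 1 pool and not between independently made lines.

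mTOR is a kinase that couples growth to nutrients and growth factors, and Torin1 blocks its active site in both of its complexes, mTORC1 and mTORC2. mTORC1 is known to drive translation of mRNAs with a 5′ terminal oligopyrimidine (TOP) tract, to raise the transcription factor ATF4 and through it amino acid uptake and synthesis, and to hold back autophagy. mTORC2 activates AKT, which keeps FoxO transcription factors out of the nucleus. Active mTORC1 and S6 kinase also restrain insulin and growth factor receptors and the RAS-ERK pathway, a negative feedback that is lost when mTOR is inhibited.

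A value below is in CPM (reads of a transcript scaled to a common library total) after TMM scaling, which corrects each library's total for its composition, unless it is named a log2 fold change, which is always Torin1 over DMSO. The libraries held between 17048586 and 25994278 counts over coding sequences (CDS). Of the 12423 transcripts listed, 10958 were tested because all 3 libraries of 1 condition or of both had them above 1 CPM. The filter used CPM before TMM scaling. On that scale the lowest CPM that let a transcript in was 1.00022, and the highest that kept one out was 0.9989844. The Torin1 libraries resembled each other more (r of log2 CPM 0.995 to 0.996) than the DMSO libraries did (0.979 to 0.988), and DMSO library 2 stood furthest from the others, with 86 transcripts more than 1 log2 unit below every other library against 0 to 2 in each of the other libraries. The deviation of a library from the mean of all 6 also moved with CDS length, with Spearman's rho across transcripts of -0.44, -0.41 and 0.20 in the DMSO libraries and of 0.29, 0.43 and 0.47 in the Torin1 libraries, so that the spread with length and the treatment cannot be told apart. The median log2 fold change rose from -0.21 in the fifth of transcripts with the shortest CDS to 0.21 in the fifth with the longest, and values after a correction for CDS length and GC content are given where they change a result. In bulk RNA, fewer cells of a type and less RNA per cell cannot be told apart.

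The markers of the line were present. Of 16 sympathoadrenal and neuronal markers 14 were tested and none was called at an adjusted p of 0.05, with a median log2 fold change of -0.06. With the passage as a block, the neuronal RNA-binding protein Elavl4 was called higher (0.68, adjusted p = 0.0013) and the transcription factor Gata3 lower (-0.65, adjusted p = 0.024). Dbh, which makes noradrenaline, was at 48.8, 48.8 and 50.5 CPM in DMSO and at 46.1, 36.8 and 42.9 with Torin1. Of the markers of fibroblasts, macrophages and endothelium, 1 each passed the filter (Pdgfra, Cd68 and Pecam1), at 1.20 to 4.53 CPM in every library, and none was called. Eif4e3 itself was at 18.0, 11.8 and 17.9 CPM in DMSO and at 13.9, 17.0 and 12.4 with Torin1, a log2 fold change of -0.14 ± 0.19 (SE, adjusted p = 0.676).

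Torin1 raised more mRNAs than it lowered. In the quasi-likelihood test of edgeR, with p adjusted over all tested transcripts by the Benjamini-Hochberg method, 299 passed the threshold of 0.05 (2.73%), of which 225 were higher (2.05%) and 74 lower (0.675%) with Torin1. The median log2 fold change was 1.00 among the higher, -0.69 among the lower and 0.0036 over all tested transcripts, and 114 of the higher and 18 of the lower differed by at least 1 log2 unit. None of the 299 overlapped between the conditions, against 30.6% of all tested transcripts that did not overlap.

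**Figure D1:**
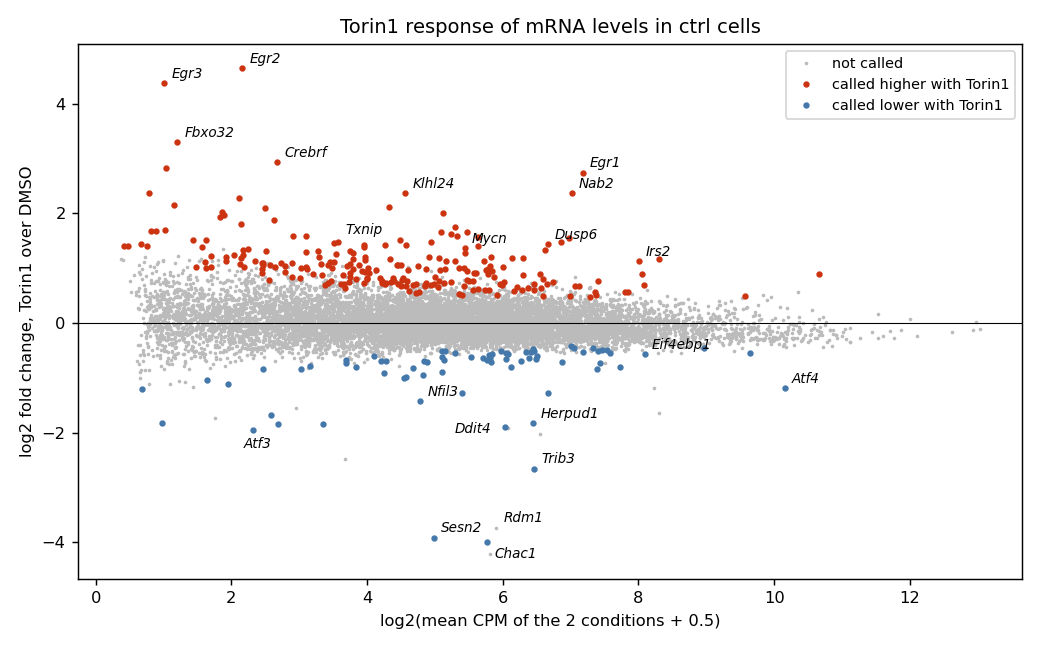
Log2 fold change of each tested transcript (y axis) against log2 of its mean CPM over the conditions plus 0.5 (x axis), with called transcripts in red (225 higher) and blue (74 lower) and all others in grey. The largest increases lie at low mean CPM (Egr3, Egr2, Fbxo32) and the largest called decreases at middle levels (Chac1, Sesn2), and Rdm1 is a decrease without a call.

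How many transcripts were called depended on the treatment of passages and on single libraries. With the passage as a block, 1328 were called (12.1%), 978 of them higher (8.92%) and 350 lower (3.19%), and these held all 299. The median CDS of the block calls was 2294 nt for the higher and 705 nt for the lower. Without the block it was 1563 nt and 970.5 nt, so the calls with the block differed more in CDS length. With the correction for CDS length and GC content, 604 were called (5.51%), 336 higher (3.07%) and 268 lower (2.45%), and with the block as well 4.47% were higher and 3.15% lower. The correction alone moved the share of higher calls from 75.3% to 55.6%. That share was 65.0% of 723 calls by DESeq2, 55.0% of 1221 when all 4 RNA-seq conditions were fitted together and 60.9% of 1465 without DMSO library 3. Without DMSO library 3, 8.12% were higher and 5.21% lower. Without another single library the count was 114 to 306, and 89 transcripts, 72 higher and 17 lower, were called whichever library was left out.

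DMSO library 3 had a block of genes that no other library shared. In it, and in no other, 7 transcripts stood more than 1 log2 unit above every other library, and all 7 were on the plus strand of chromosome 11 (GRCm38, chr11:101448407-101767358), a stretch of 319 kb in which they were all of the tested plus-strand transcripts. Rdm1, a DNA repair gene, was at 8.71, 12.9 and 309.3 CPM in DMSO and at 8.39, 7.90 and 8.59 with Torin1. Nbr1, an autophagy receptor, was at 105.3, 104.0 and 1034 in DMSO and at 181.8, 177.7 and 186.5 with Torin1, a log2 fold change of -1.19 (adjusted p = 0.305) that became 0.80 (adjusted p = 0.0028) without DMSO library 3. Vat1, in the stretch but on the minus strand, was at 209.7, 273.4 and 260.5 CPM in DMSO. In CPM without TMM scaling, the KO libraries had Rdm1 at 5.49 to 8.65, and the Ribo-seq DMSO library of the same passage had it at 8.96. With the passage block Rdm1, Arl4d and Ifi35 were the largest decreases that the unblocked test did not call, and each rested on this library. Without it, their log2 fold changes were -0.38, -0.64 and -0.51, with adjusted p = 0.207, 0.0669 and 0.0671. The cause was not tested.

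**Figure D2:**
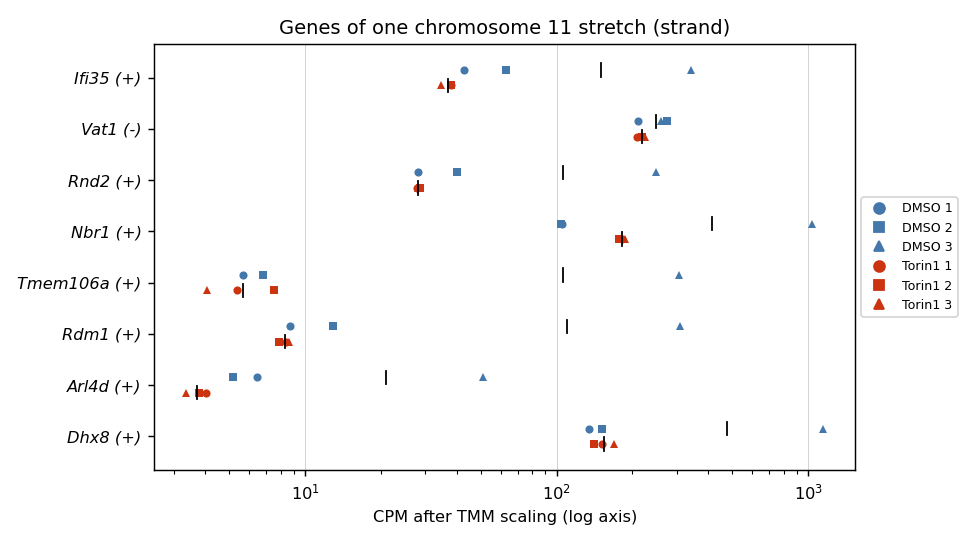
CPM on a log axis of 8 neighbouring chromosome 11 genes in each library, with blue symbols for DMSO, red for Torin1, one symbol shape per replicate and a black bar at the mean of each condition. DMSO library 3 (blue triangle) lies far to the right in the 7 plus-strand genes and among the other libraries in Vat1, which is on the minus strand.

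The deepest decreases were genes of the integrated stress response, which cells use to restrain translation and to meet amino acid shortage, and whose main effector is ATF4. Chac1, which degrades glutathione, was at 97.1, 102 and 106 CPM in DMSO and at 6.07, 6.95 and 6.15 with Torin1. Every DMSO library was far above every Torin1 library, a 15.9-fold difference (log2 fold change -3.99 ± 0.14, SE, adjusted p = 2.6e-08). Sesn2, a leucine sensor that inhibits mTORC1, was at 54.4, 50.0 and 71.0 in DMSO and at 3.71, 4.08 and 3.83 with Torin1, 15.1-fold lower. Trib3, a pseudokinase that binds AKT and ATF4, was at 145.8, 157.9 and 150.0 and then at 25.9, 25.7 and 20.3, 6.30-fold lower.

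Atf4 mRNA itself was at 1647, 1734 and 1366 CPM in DMSO and at 695.8, 702.2 and 691.8 with Torin1 (log2 fold change -1.18 ± 0.12, adjusted p = 0.00017). Of the 23 genes listed for ATF4 and the integrated stress response 21 were tested. Of these 12 fell and none rose, where 0.675% of all tested transcripts fell. All 21 had a log2 fold change below 0, with a median of -0.80 against 0.0036 over all tested transcripts. The members that fell had several roles. Ddit4, an mTORC1 inhibitor induced by stress, went from 97.9, 95.3 and 114 CPM to 27.1, 27.7 and 27.3. Herpud1, which acts in the degradation of misfolded ER proteins, went from 136, 138 and 132 to 40.6, 37.1 and 36.7. Among transcription factors of the group, Atf3 fell by 1.95, Jdp2 by 1.84 and Ddit3, the gene of CHOP, by 0.80 on the log2 scale. Gdf15, a secreted stress hormone, fell by 1.27. Eif4ebp1, the gene of the translational repressor 4E-BP1, fell by 0.57 and Ppp1r15a, which directs the phosphatase that reverses the stress response, by 0.54. The calls of 3 of these were lost when single libraries were left out, with an adjusted p of 0.0823 to 0.117 for Ddit3 (without DMSO 1, Torin1 2 or Torin1 3), 0.0522 to 0.116 for Eif4ebp1 (without DMSO 1 or any Torin1 library) and 0.0539 to 0.235 for Ppp1r15a (without any 1 library other than DMSO 3).

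Other members of the stress response list were not called. Cebpb, which pairs with CHOP, was at 11.4, 7.95 and 12.4 CPM in DMSO and at 4.69, 7.03 and 6.27 with Torin1 (log2 fold change -0.82, adjusted p = 0.066, and 0.0068 with the passage block). Atf5 had a log2 fold change of -0.53 (adjusted p = 0.059, and 0.0048 with the block) and Stc2 of -0.55 (0.060 and 0.020). After the correction for CDS length and GC content Cebpb (adjusted p = 0.0145), Atf5 (0.0209) and Stc2 (0.0393) were called, and Eif4ebp1 was not (log2 fold change -0.31, adjusted p = 0.0709).

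Most enzymes and carriers of amino acid supply were not called. Over all tested transcripts 2.05% were called higher and 0.675% lower. The shares called lower were 3.19% with the passage block and 2.45% with the correction for CDS length and GC content. Asns, asparagine synthetase and a classic ATF4 target, was at 2021, 2508 and 1878 CPM in DMSO and at 1802, 1750 and 1767 with Torin1, and its log2 fold change of -0.27 ± 0.13 did not pass (adjusted p = 0.237). Of 20 tested genes of serine, folate, asparagine and proline synthesis 1 fell, Gpt2, an alanine transaminase (107, 97.9 and 97.1 CPM to 77.7, 70.9 and 67.7, adjusted p = 0.0451), while the passage block called 5 and the correction 6, and the median log2 fold change was -0.24. Of 18 amino acid transporters 2 fell and 1 rose. Slc3a2, the heavy chain shared by several exchangers, was at 866, 1129 and 858 CPM in DMSO and at 647, 657 and 654 with Torin1, and Slc1a4, a neutral amino acid carrier, fell by 0.55. Slc43a1, another neutral amino acid carrier, rose from 1.39, 1.55 and 1.59 to 3.26, 2.52 and 3.42. Slc7a5, the partner of Slc3a2 in leucine import, had a log2 fold change of -0.50 (adjusted p = 0.056, 0.020 with the block and 0.0140 with the correction). Of 20 cytosolic aminoacyl-tRNA synthetases none was called, at a median log2 fold change of -0.14, and 2 were lower with the correction, where the median was -0.30. All 4 of these calls were lost without DMSO 1 or without any single Torin1 library (adjusted p 0.0958 to 0.247 for Gpt2, 0.0584 to 0.156 for Slc1a4, 0.0653 to 0.185 for Slc43a1 and 0.0681 to 0.207 for Slc3a2), and that of Slc43a1 also without DMSO 2.

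**Figure D3:**
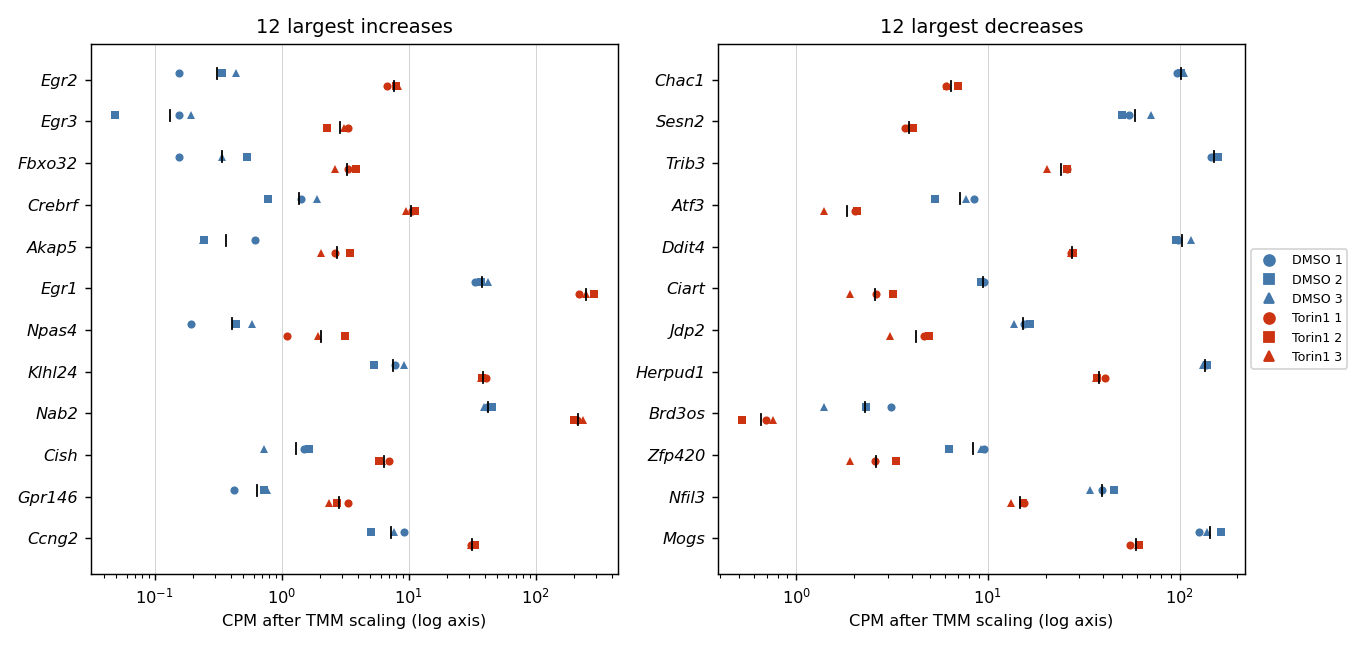
CPM on a log axis in each of the 6 libraries for the 12 called transcripts with the largest increase (left) and the 12 with the largest decrease (right), with blue symbols for DMSO, red for Torin1, one shape per replicate and a black bar at the mean. In every gene the DMSO and the Torin1 libraries do not overlap, and the gap is widest for Egr2 and Egr3 on the left and for Chac1 and Sesn2 on the right.

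Egr2 and Egr3, which had the largest increases, are immediate early genes, a class that growth factors and neuronal activity induce within minutes through ERK and the serum response factor SRF. Egr2, a zinc finger transcription factor, was at 0.154, 0.339 and 0.434 CPM in DMSO, from 4, 7 and 9 reads, and at 6.76, 7.90 and 8.30 with Torin1, from 166, 182 and 143 reads. Its log2 fold change was 4.65 ± 0.31 (SE, adjusted p = 5.1e-06). Egr3, its close relative, was at 0.154, 0.0485 and 0.193 in DMSO (4, 1 and 4 reads) and at 3.34, 2.26 and 3.08 with Torin1 (log2 fold change 4.38 ± 0.40). Egr1, expressed well above the floor of detection in every library, was at 33.4, 36.9 and 42.3 in DMSO and at 219.4, 286.9 and 247.5 with Torin1, 6.70-fold higher (adjusted p = 4.5e-07). Nab2, a corepressor that binds EGR proteins, rose in parallel from 41.1, 45.7 and 39.3 to 213, 200 and 236.

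Of 30 listed immediate early genes 26 were tested, and 16 rose and 1 fell, at a median log2 fold change of 1.00. The shares of all tested transcripts were 2.05% and 0.675%. Fos rose from 3.24, 4.12 and 3.23 CPM to 10.8, 10.8 and 10.1, and Junb, which pairs with FOS in AP-1, from 59.6, 60.1 and 63.3 to 177, 162 and 170. Arc, a synaptic effector, rose from 16.0, 17.7 and 19.9 to 41.0, 36.8 and 46.4. Srf itself rose by a log2 fold change of 1.20, from 36.6, 42.1 and 48.7 CPM to 96.8, 94.7 and 99.9. Btg2 (2.03), Klf10 (1.41), the mRNA decay factor Zfp36 (1.31), Fosl2 (0.98), Maff (1.01), Ier2 (0.61) and the nuclear receptors Nr4a3 (1.20) and Nr4a1 (0.56) rose as well, as did Npas4, a neuronal activity factor, from 0.193, 0.436 and 0.579 CPM to 1.10, 3.13 and 1.92. The member that fell was Atf3, which is also an ATF4 target. Jun was at 20.1, 26.9 and 21.3 CPM in DMSO and at 14.8, 21.1 and 17.8 with Torin1 and was not called (adjusted p = 0.237).

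Some of these calls depended on single libraries. The calls of Npas4 (adjusted p 0.0618 to 0.101 without DMSO 1, DMSO 2 or Torin1 2), Nr4a3 (0.0787 to 0.115 without DMSO 1, Torin1 1 or Torin1 2), Ier2 (0.0597 to 0.114), Nr4a1 (0.0878 to 0.223, both without DMSO 1 or any Torin1 library) and Maff (0.0856 to 0.201 without any library but DMSO 3) were lost. Those of Egr1, Egr2, Egr3, Fos, Junb, Arc and Srf were not lost without any single library.

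SRF binds a sequence called the CArG box, and this letter pattern was looked for on both strands in the RefSeq promoters of the tested genes (GRCm38.p6, from 250 bases before the start of the transcript to 50 after it). Such a window was found for 8732 tested genes, 180 of them higher and 63 lower with Torin1. A CArG box was in the windows of 10 higher genes (5.56%), 1 lower gene, Herpud1 (1.59%), and 1.56% of all. The higher genes were Cnn2, Dusp5, Egr2, Lima1, Lurap1l, Myadm, Srf, Vamp1, Vcl and Zfp36, of which Cnn2, Lima1 and Vcl encode actin-binding proteins. The calls of Myadm (adjusted p 0.0659 to 0.140) and Vcl (0.0942 to 0.116) were lost without DMSO 1 or any Torin1 library, and that of Lurap1l (0.0504 to 0.201) without any library but DMSO 3. Among called genes with a window, 3 of 12 listed immediate early genes and 1 of 6 listed ERK-responsive genes held a box. For these 4 the stretch around the box is shown, with the box in capitals and 5′ to 3′ on the strand of the gene. The stretches come from chr10:67537434-67537563 (plus strand, 1 of 5 windows of Egr2) and chr17:46556163-46556304 (minus strand, Srf). The others come from chr19:53529003-53529142 (plus strand, Dusp5) and chr7:28379229-28379346 (minus strand, Zfp36). Each lies upstream of the RefSeq start of its window. The tested Ensembl transcript of Zfp36 has another start and spans chr7:28376784-28380253, so that the stretch of Zfp36 lies within it.
Egr2: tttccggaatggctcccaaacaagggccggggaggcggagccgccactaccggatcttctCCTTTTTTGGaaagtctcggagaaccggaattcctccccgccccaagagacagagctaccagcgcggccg
Srf: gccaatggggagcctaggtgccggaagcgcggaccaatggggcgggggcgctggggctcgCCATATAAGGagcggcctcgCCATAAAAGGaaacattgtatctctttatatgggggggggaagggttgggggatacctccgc
Dusp5: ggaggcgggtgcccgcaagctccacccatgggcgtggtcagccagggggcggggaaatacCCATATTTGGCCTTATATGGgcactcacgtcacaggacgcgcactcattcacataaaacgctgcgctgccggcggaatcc
Zfp36: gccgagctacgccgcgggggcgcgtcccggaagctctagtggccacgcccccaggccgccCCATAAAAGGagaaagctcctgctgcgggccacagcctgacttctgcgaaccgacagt

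Srf and Dusp5 had 2 boxes each, the others 1. These are matches of letters, and no binding was measured. Other motifs were found in shares of the higher, the lower and all genes that are given here as a description: the cAMP response element TGACGTCA in 5.00%, 3.17% and 3.94%, the E-box CACGTG in 15.6%, 6.35% and 12.1%, the sterol element TCACCCCAC in 0.556%, 0% and 0.733%, and an ATF4 element TGATGNAAT in 1.11%, 0% and 0.470%. Of the 19 ATF4 list members with a window 1 held the ATF4 element, and of the 11 called ones 0 did.

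Genes that ERK induces to restrain itself rose with the immediate early genes. Of 18 tested genes of this list 8 rose and none fell, at a median log2 fold change of 0.43, where 2.05% of all rose. The largest increases were in phosphatases that inactivate MAP kinases. Dusp2 rose from 12.9, 13.8 and 14.0 CPM to 58.1, 52.5 and 54.1, 4.04-fold. Dusp6, which is selective for ERK, rose from 59.6, 46.3 and 56.8 to 151, 143 and 148. Dusp5 and Dusp4 rose by log2 fold changes of 1.43 and 1.34. Spry1 (1.04), Spry2 (0.67) and Spred1 (0.83), adaptors that hold back signalling from receptors to RAS, and Phlda1 (1.00) rose less. Dusp7 was at 6.74, 6.74 and 9.21 CPM in DMSO and at 4.52, 5.34 and 4.88 with Torin1 (adjusted p = 0.106, and 0.048 with the block). Without DMSO 1 or any single Torin1 library the calls of Spry2 (adjusted p 0.0522 to 0.103) and Spred1 (0.0701 to 0.158) were lost.

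FoxO targets and the parts of the insulin receptor pathway that FoxO proteins induce made up a further group of increases. Of 22 tested 7 rose and none fell, at a median log2 fold change of 0.42, where 2.05% of all tested transcripts rose. The passage block called 11 higher, against 8.92% of all. Fbxo32, the gene of the muscle ubiquitin ligase atrogin, was at 0.154, 0.533 and 0.338 CPM in DMSO (4, 11 and 7 reads) and at 3.34, 3.86 and 2.61 with Torin1, a log2 fold change of 3.30 ± 0.37 (adjusted p = 0.00036). Ccng2, a cyclin of quiescent cells, rose from 9.13, 5.04 and 7.62 to 31.1, 33.2 and 31.1. Txnip, which limits glucose uptake, rose from 12.5, 10.0 and 11.3 to 37.0, 30.6 and 29.9, 2.87-fold. In all 3 genes the conditions were well apart.

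Some signalling members of the same list rose as well. Irs2, the adaptor that links the insulin receptor to PI3K, was at 150, 120 and 212 CPM in DMSO and at 336, 358 and 363 with Torin1. Pik3ip1, an inhibitor of PI3K, rose by a log2 fold change of 1.21, and Foxo3 by 1.06. Rictor, the defining subunit of mTORC2, was at 20.7, 12.3 and 33.7 in DMSO and at 47.3, 46.5 and 52.6 with Torin1 (log2 fold change 1.13, adjusted p = 0.0459). Irs1 was at 10.6, 7.51 and 16.7 in DMSO and at 20.4, 21.7 and 24.8 with Torin1, with an adjusted p of 0.059 that became 5.8e-05 with the block and 0.0298 with the correction, and the insulin receptor Insr had a log2 fold change of 0.64 (adjusted p = 0.128, and 0.0015 with the block). In Irs2, Rictor, Irs1 and Insr the DMSO libraries spread widely, with library 2 lowest and library 3 highest. The number of FoxO list members called higher was 4 without DMSO 1 and 10 without DMSO 3, where 1 was called lower. Without DMSO 3, 8.12% of all tested transcripts were higher and 5.21% lower. The calls of Foxo3 (adjusted p 0.0565 to 0.0958 without DMSO 1, Torin1 1 or Torin1 2), Irs2 (0.0637 without DMSO 1) and Rictor (0.101 to 0.135 without DMSO 1 or any Torin1 library) were lost.

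The FoxO recognition letters GTAAACA were searched in the same promoter windows, on both strands. They were in those of 10 higher genes (5.56%), 2 lower genes (3.17%) and 3.02% of all. The higher genes were Frat1, Gpr146, Hbp1, Jmy, Junb, Pim1, Ppfibp2, Txnip, Zfp874a and Zfp874b, the last pair of which are near-identical paralogs whose reads can be split uncertainly. Calls were lost for Frat1 without any library but DMSO 3 (adjusted p 0.0878 to 0.194), for Jmy without DMSO 1 or any Torin1 library (0.105 to 0.121), for Ppfibp2 without any Torin1 library (0.0598 to 0.0761), for Zfp874a without DMSO 2, Torin1 1 or Torin1 2 (0.0618 to 0.147) and for Zfp874b without Torin1 1 or Torin1 2 (0.0735 to 0.0895). Of the 18 FoxO list members with a window 3 held a match, of which Txnip was called. For Fbxo32 no such promoter window was found, so its promoter was not searched. The stretches of Txnip and of Hbp1, a repressor of the cell cycle, are shown with the letters in capitals, 5′ to 3′ on the strand of the gene. They lie upstream of the start at chr3:96557776-96557902 (plus strand) and chr12:31950328-31950454 (minus strand) of GRCm38.p6.
Txnip: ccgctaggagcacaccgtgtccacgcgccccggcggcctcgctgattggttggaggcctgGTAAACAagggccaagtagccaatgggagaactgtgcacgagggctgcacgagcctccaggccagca
Hbp1: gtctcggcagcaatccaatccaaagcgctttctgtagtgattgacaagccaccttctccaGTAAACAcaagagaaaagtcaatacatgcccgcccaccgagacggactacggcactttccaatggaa

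Some genes of the mTOR pathway itself were called, in both directions. Of 47 tested members and regulators 2 rose (Rictor and Tsc1) and 2 fell (Sesn2 and Ddit4), at a median log2 fold change of 0.01. The shares of all tested transcripts were 2.05% and 0.675%. The block called 6 higher and 5 lower, against 8.92% and 3.19% of all. Tsc1, a subunit of the complex that switches off the mTORC1 activator RHEB, was at 31.4, 29.5 and 42.4 CPM in DMSO and at 60.3, 55.8 and 60.6 with Torin1. The kinase Mtor was at 83.5, 75.8 and 109 in DMSO and at 107, 101 and 112 with Torin1 (adjusted p = 0.283). The number called higher was 0 without DMSO 1 or any single Torin1 library, where Tsc1 had an adjusted p of 0.0668 to 0.0876. It was 8 without DMSO 3, where 8.12% of all tested transcripts were higher. Of 12 tested eIF4F factors and 4E-BPs, Eif4ebp1 alone was called, and with the correction for CDS length and GC content it was not (log2 fold change -0.31, adjusted p = 0.0709). Eif4a2, the gene of a helicase of the complex, had a log2 fold change of 0.46 (adjusted p = 0.060, 0.012 with the block and 0.0426 with the correction). Eif4e was at 141, 111 and 107 CPM in DMSO and at 113, 108 and 97.8 with Torin1 (adjusted p = 0.437).

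Some autophagy genes rose. Of 45 tested genes of autophagy and of TFEB regulation 6 rose and none fell, where 2.05% of all tested transcripts rose. The median log2 fold change was 0.17, or 0.04 after the correction. The block called 10 higher and 1 lower, against 8.92% and 3.19% of all. Flcn, which enables mTORC1 to hold TFEB in the cytoplasm, rose from 28.8, 36.1 and 33.1 CPM to 65.9, 58.0 and 60.9. Its partner Fnip1 rose from 37.6, 20.3 and 43.5 to 85.7, 75.0 and 74.8. Of the machinery that starts autophagosomes, Atg14 rose from 6.47, 8.38 and 6.41 to 15.4, 11.8 and 15.4 and Atg13 from 18.3, 21.2 and 17.8 to 32.7, 28.9 and 31.7. Gabarapl1 and Calcoco1 rose by log2 fold changes of 0.55 and 0.59.

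The calls in the autophagy list were few without some single libraries, with 1 higher without DMSO 1 or without Torin1 1. There were 2 without Torin1 3, 3 without Torin1 2 and 11 without DMSO 3, where 8.12% of all tested transcripts were higher. The adjusted p values of lost calls were 0.0554 to 0.0684 for Atg14 (without DMSO 1, Torin1 1 or Torin1 3), 0.0558 to 0.0742 for Fnip1 (without DMSO 1 or Torin1 1), and 0.0639 to 0.105 for Atg13, 0.0964 to 0.210 for Gabarapl1 and 0.103 to 0.220 for Calcoco1 (without DMSO 1 or any Torin1 library). The lysosome, the compartment that TFEB expands, showed no call in 46 tested genes of hydrolases, membrane proteins and the V-ATPase (median log2 fold change -0.02), and the block called 1 lower, the V-ATPase subunit gene Atp6v0e (-0.48, adjusted p = 0.030, and 0.239 with the correction alone). Lamp1 was at 629, 693 and 586 CPM in DMSO and at 698, 638 and 650 with Torin1.

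**Figure D4:**
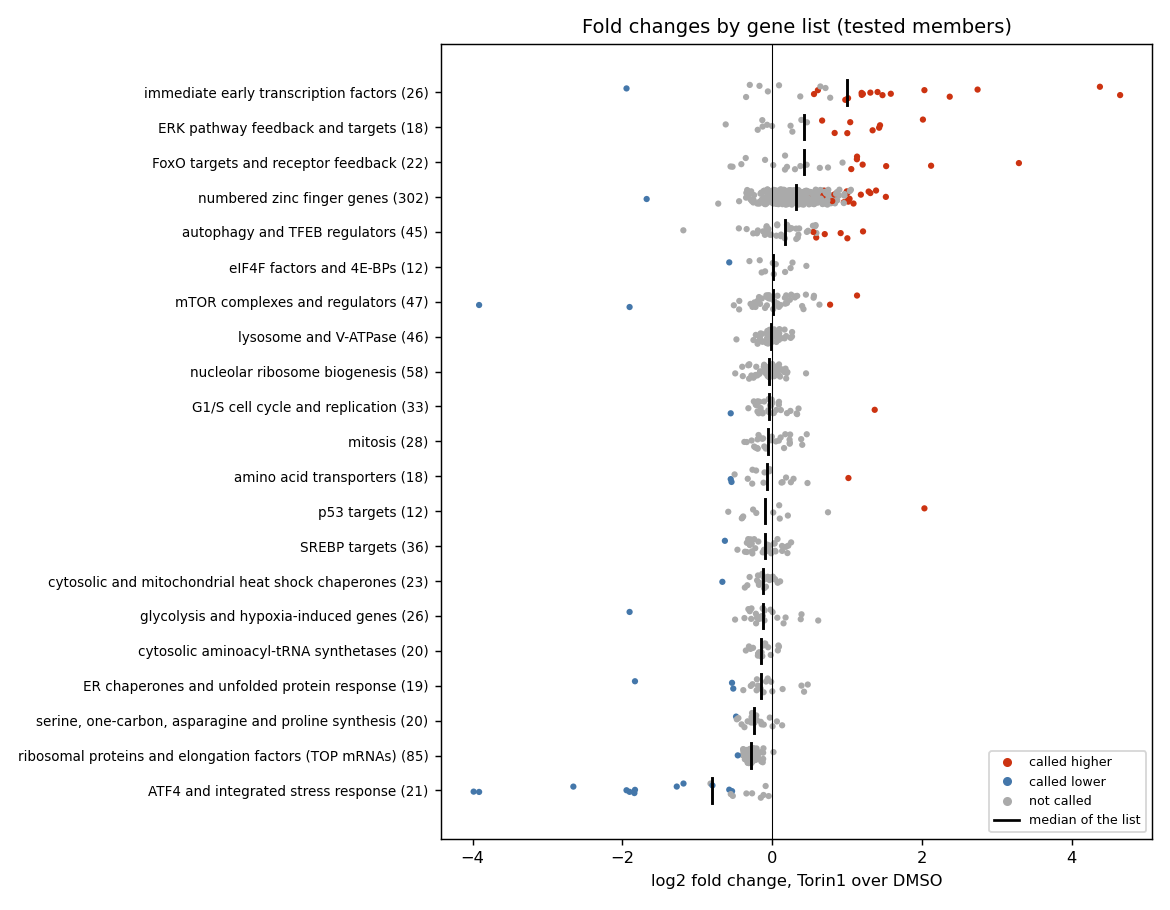
Log2 fold change (x axis) of each tested member of 21 gene lists, with the number tested in parentheses, called members in red (higher) or blue (lower), others in grey, and a black bar at the median. The medians run from 1.00 in the immediate early genes to -0.80 in the ATF4 list, and most of the growth-related lists lie close to 0.

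The mRNAs of the translation machinery, whose translation mTORC1 controls, gave 1 call in level. Of 85 ribosomal protein and elongation factor mRNAs, which carry TOP tracts, 1 was called, Rpl27, at 559, 639 and 540 CPM in DMSO and 431, 410 and 423 with Torin1 (adjusted p = 0.0459). Of the 85, 84 had a log2 fold change below 0, with a median of -0.28, and these are short mRNAs (median CDS 468 nt) in a comparison where short CDS sat lower. After the correction for CDS length and GC content the median was -0.11 and none was called. The call of Rpl27 was lost without DMSO 1 or any single Torin1 library (adjusted p 0.0710 to 0.241), while 40 of the list were called lower without DMSO 3, where 5.21% of all tested transcripts were. In the ribosome footprints of the same cells all 85 were called lower, at a median log2 fold change of -1.99. Of 58 nucleolar genes of ribosome biogenesis none was called, at a median of -0.04, and the block called 1 higher and 3 lower, the correction 1 lower.

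Most metabolic and chaperone genes were not called. For comparison, 0.675% of all tested transcripts were called lower, 3.19% with the passage block and 2.45% with the correction. Of 36 tested targets of the sterol factor SREBP 1 fell, Msmo1, a sterol oxidase, from 93.2, 101 and 109 CPM to 57.7, 64.3 and 73.9, and the block called 2 lower and the correction 5. Of 26 genes of glycolysis and hypoxia only Ddit4 was called, and the block added Slc2a3 and Slc16a3. Of 19 ER chaperone and unfolded protein response genes 3 fell, Herpud1, Manf (log2 fold change -0.54) and Creld2 (-0.52), and Hspa5, the main ER chaperone, was at 850, 854 and 735 CPM in DMSO and at 656, 683 and 695 with Torin1 (adjusted p = 0.187, and 0.046 with the correction). Of 23 heat shock chaperones 1 fell, Dnajb1, from 80.4, 81.9 and 79.5 to 48.6, 47.3 and 56.8. Calls were lost for Msmo1 without DMSO 1, Torin1 1 or Torin1 2 (adjusted p 0.0522 to 0.151), for Manf (0.0822 to 0.160) and Creld2 (0.0681 to 0.216) without DMSO 1 or any Torin1 library, and for Dnajb1 without Torin1 1 or Torin1 2 (0.0965 to 0.112). The count of ER genes called lower was 5 without DMSO 3, where 5.21% of all tested transcripts were.

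Cell cycle genes gave 2 calls at 2 h. Of 33 genes of the G1/S transition and replication Mycn rose and Ccnd3 fell, and of 28 mitotic genes none was called. Mycn, the MYC family member that is amplified in many human neuroblastomas, was at 27.1, 21.2 and 23.6 CPM in DMSO and at 64.6, 63.5 and 57.7 with Torin1 (log2 fold change 1.37 ± 0.13, adjusted p = 0.00013). Ccnd3, cyclin D3, was at 40.8, 50.4 and 47.2 and at 31.1, 29.6 and 33.6, and its call was lost without any single Torin1 library (adjusted p 0.136 to 0.235). Cdk1, which drives entry into mitosis, was at 508, 499 and 419 in DMSO and at 424, 405 and 419 with Torin1 (adjusted p = 0.307). Mki67 was at 526, 492 and 687 and at 736, 740 and 776, with an adjusted p of 0.118 that became 0.048 with the block, but its log2 fold change of 0.40 was -0.05 after the correction (adjusted p = 0.814). The block called 3 mitotic genes higher and 1 lower, against 8.92% and 3.19% of all transcripts, and with the correction as well 0 and 1. Of 12 tested p53 targets 1 rose, Btg2, already among the immediate early genes, and the block called 2 in each direction.

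Zinc finger genes numbered Zfp, many of which encode DNA-binding repressors, were more often higher than lower. Of 302 tested 18 rose and 1 fell, where 2.05% of all tested transcripts rose and 0.675% fell. Of the 302, 254 had a log2 fold change above 0. The median was 0.32, or 0.15 after the correction for CDS length and GC content. With the passage block 74 rose and 2 fell, where 8.92% of all tested transcripts rose, and with the block and the correction together 31 rose and 4 fell, where 4.47% of all rose. Zfp951 rose from 1.70, 1.02 and 1.25 CPM to 3.22, 4.91 and 3.37, Zfp799 from 6.09, 3.49 and 4.44 to 12.6, 12.2 and 9.69, and Zfp36, which is in this list by its symbol and binds RNA, is given above. The member that fell was Zfp420, from 9.60, 6.30 and 9.21 to 2.57, 3.30 and 1.92. The number that rose was 8 without DMSO 1, 5 without Torin1 1, 3 without Torin1 2 and 9 without Torin1 3. It was 46 without DMSO 3, where 8.12% of all tested transcripts rose. The call of Zfp951 was lost without Torin1 2 (adjusted p = 0.0706).

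Among the largest changes outside the lists, Crebrf, a regulator of CREB3 proteins, rose from 1.43, 0.775 and 1.88 CPM to 10.6, 11.2 and 9.52. Klhl24, an adaptor of a ubiquitin ligase, rose from 7.86, 5.38 and 9.26 to 40.8, 38.0 and 37.4. Akap5, which anchors protein kinase A at synapses, rose by a log2 fold change of 2.83, Cish, a feedback inhibitor of cytokine receptors, by 2.28 and the receptor Gpr146 by 2.15. Mogs, the glucosidase that starts the trimming of N-glycans, fell from 126, 164 and 140 to 55.0, 61.3 and 60.8. Brd3os fell from 3.12, 2.33 and 1.40 to 0.693, 0.521 and 0.754, and its call was lost without DMSO 1, Torin1 1 or Torin1 2 (adjusted p 0.0658 to 0.0924).

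The transcripts that rose and those that fell also differed in structure, as a description with no test. In the GENCODE annotation of GRCm38 the higher transcripts had a median of 7 exons and a 3′ UTR of 1557 nt, the lower ones 4 exons and 673.5 nt, and all tested transcripts 9 exons and 1006 nt. The pentamer ATTTA, the core of AU-rich decay elements, was in the 3′ UTR of 83.9% of the higher, 50.0% of the lower and 66.7% of all, which cannot be told apart here from the length of the 3′ UTR. The median CDS was 1563 nt for the higher and 970.5 nt for the lower transcripts (1389 nt over all). With the passage block these medians were further apart, at 2294 nt and 705 nt. The difference moved with the correction, after which the median CDS was 1392 nt for the higher and 1784 nt for the lower. The exon medians turned round as well, to 7 for the higher and 10 for the lower, while those of the 3′ UTR were 1669 nt and 656.5 nt.

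The same treatment of KO cells, in 6 other RNA-seq libraries, moved most of these transcripts in the same direction. There 686 transcripts were higher (6.23% of 11004 tested) and 411 lower (3.74%). Of the 225 that rose in ctrl cells 222 were tested in KO cells, 221 had the same direction and 205 were called in it, which is 91.1% of the ctrl calls and 29.9% of the KO calls. Of the 74 that fell 73 were tested, 71 had the same direction and 65 were called in it, 87.8% of the ctrl calls and 15.8% of the KO calls. None was called in the opposite direction. The exceptions in direction were 2210418O10Rik, which rose in ctrl cells (1.24 against -0.34 in KO cells), and the paralogs Dynlt1a (-1.01 against 0.13) and Dynlt1f (-0.83 against 0.13), whose reads may be split between them. Their calls in ctrl cells were lost without single libraries, for 2210418O10Rik without DMSO 1, DMSO 2, Torin1 1 or Torin1 2 (adjusted p 0.0605 to 0.158), for Dynlt1a without Torin1 1 or Torin1 2 (0.0507 to 0.0719) and for Dynlt1f without any library but DMSO 3 (0.0634 to 0.160) and with the correction (0.0572). The difference between ctrl and KO cells was tested as an interaction of genotype and treatment. In it edgeR called 0 of 11073 transcripts, with 108 at an unadjusted p under 0.05, against 0 adjusted and 94 unadjusted by DESeq2. Both unadjusted counts are a smaller share than the 0.05 that a well-calibrated test gives where nothing differs. The 0 calls therefore do not show that the responses were alike.

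**Figure D5:**
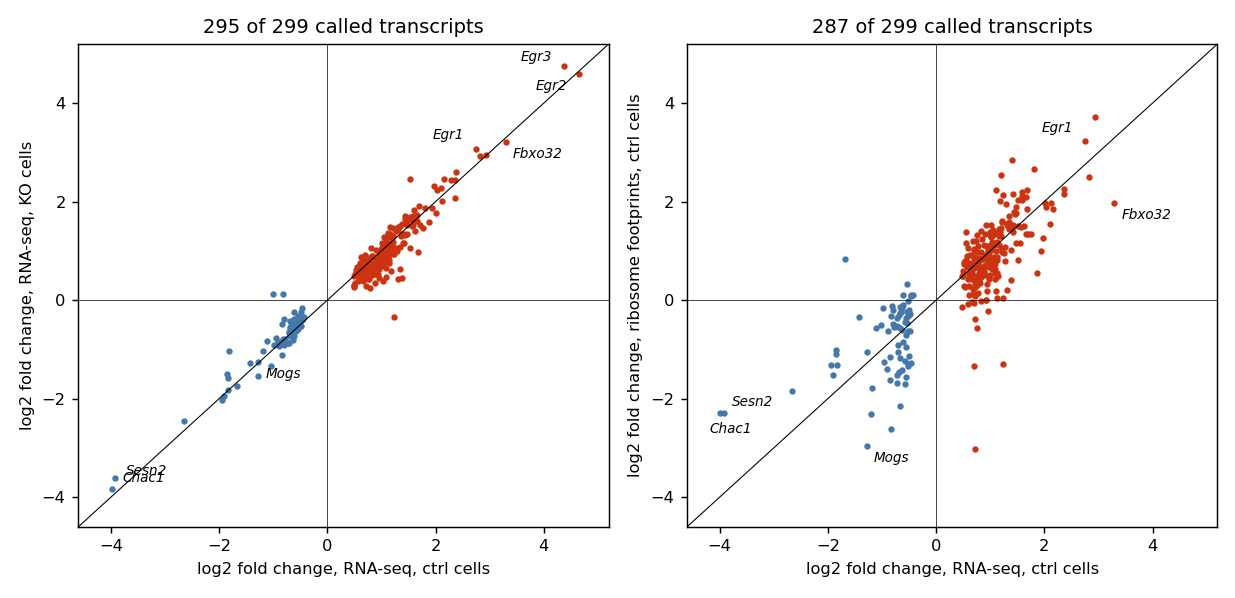
Log2 fold change in KO RNA-seq (left, y axis) and in ribosome footprints of ctrl cells (right, y axis) against the log2 fold change in ctrl RNA-seq (x axis) for the transcripts called in ctrl RNA-seq, red higher and blue lower, with a diagonal at equal change. The KO points follow the diagonal, and the footprint points scatter around it with 2 called in the opposite direction. Egr2 is left out on the right, since both DMSO footprint libraries have 0 reads of it.

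In the footprints of ctrl cells, which count ribosomes on each CDS, part of these changes were called as well. Footprints came from 5 libraries (DMSO 1 and 3 and all 3 with Torin1) of 669392 to 4529186 counts, and 608 transcripts were called higher (5.69% of 10693 tested) and 1062 lower (9.93%). Of the transcripts that rose in RNA-seq 216 were tested in footprints, 204 had the same direction and 101 were called in it, 44.9% of the RNA-seq calls and 16.6% of the footprint calls. Of those that fell 72 were tested, 66 had the same direction and 37 were called in it, 50.0% and 3.48%. Egr2 had 0 footprint reads in both DMSO libraries and 12, 23 and 15 with Torin1. Mogs was lower in footprints by a log2 fold change of -2.95, against -1.28 in RNA-seq. The transcripts called in opposite directions were Slc25a30, a mitochondrial carrier (0.72 in RNA-seq and -3.01 in footprints), and Lama5, a laminin chain (0.70 and -1.34). The RNA-seq calls of both were lost without any library but DMSO 3 (adjusted p 0.0511 to 0.205 for Slc25a30 and 0.0596 to 0.223 for Lama5), and that of Lama5 also with the correction (0.0964).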

How the data were processed

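Total RNA of ctrl N2a cells (TRIzol) was made into stranded TruSeq libraries and sequenced (Illumina). Reads were aligned by the authors to the mm10 genome (HISAT2) and to canonical Ensembl transcripts (Bowtie2), and the deposited values are raw counts of reads per CDS. Versions are not given in the sources used here. The deposited log2 fold change and log2 CPM, and the p-value and FDR columns, are the authors' edgeR results and were not used. The Ribo-seq counts are P-sites per CDS, and ctrl DMSO Ribo-seq replicate 2 was not analysed here.

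Transcripts with a CPM over 1 in all 3 libraries of a condition were kept, scaled by TMM and tested with edgeR 4.0.16 (R 4.3.3) by the quasi-likelihood F-test, with Benjamini-Hochberg adjustment at 0.05. Replicate numbers name passages per the labels and so pair libraries. Same-numbered libraries had deviations from their condition means that correlated at 0.0581 to 0.240 across transcripts. Differently numbered libraries of opposite conditions correlated at -0.281 to 0.0582. The lowest same-numbered value, DMSO 2 with Torin1 2, was thus no higher than that of DMSO 2 with Torin1 3. As the study did not block, the block was an alternative, beside DESeq2 1.42.0, limma-voom 3.58.1, edgeR's exact test, other scalings and filters, and leaving out each library. The correction used splines (5 df) of CDS length and GC content as offsets. Scripts were tested on simulated data.

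Genes named are Eif4e3, the 12 largest called increases and decreases (mean of at least 10 reads, no overlap), up to 4 members of each list by adjusted p, the largest changes called only with the block, and cell markers. All other genes named, including further list members, were chosen after their values were seen. The comparison and the lists were chosen with earlier results of these data known. Of the transcripts called only with the block, the largest increases were Gm12569, Rnf24 and Zfp871. Transcript structures came from the GENCODE annotation of GRCm38 and promoters from RefSeq (GRCm38.p6), and figures were drawn with matplotlib 3.10.9. Some marker and list genes are not reported here.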

Additional observations from a re-analysis of the deposited data

How the results depend on the processing

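No call between Torin1 and DMSO in ctrl RNA-seq turned its direction under any alternative. Of the 299 calls (225 higher, 74 lower), the replicate block of passages gave 1328 (978 and 350), DESeq2 723 (470 and 253), the edgeR exact test 744 (500 and 244), the block without a filter 1331 (977 and 354), the fit of all 4 conditions 1221 (671 and 550), and no scaling 46 lower. Leaving out each library gave 114 to 1465 calls, 94 to 892 higher and 20 to 573 lower, the most without DMSO 3. Limma-voom, upper-quartile scaling, no filter and filterByExpr gave 288 to 322 calls. Of the alternatives chosen after seeing the data, the CDS length and GC correction gave 604 calls (268 lower), the same with the block 835 (490 and 345), and passages 1 and 3 with the block 928 (645 and 283). Without the 7 transcripts high in DMSO 3 alone there were 302 calls, and with robust dispersions 349. The cause of these shifts was not tested. In KO RNA-seq the block gave 1797 calls (1080 and 717) and leaving out a library 438 to 1465 (302 to 857 higher, 136 to 608 lower). The interaction had 0 calls under all alternatives run for it. In footprints DESeq2 gave 889 calls (272 and 617), no scaling 1691 higher and 684 lower, and leaving out a library 725 to 2291 (167 to 955 higher, 558 to 1336 lower). Among the transcripts named by the rule alone, the block added 27 calls, lost 0 and changed no other call. For the same transcripts, leaving out each library in turn lost 64 calls and added 34. Transcripts with few reads, such as Egr3 in DMSO, have the widest errors at this depth.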

Other observations

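Some called transcripts outside the lists are given here as single genes, chosen after their values were seen. Nr1d1, the gene of the repressor REV-ERB alpha, rose from 19.9, 31.3 and 24.8 CPM to 54.8, 67.6 and 61.0 (log2 fold change 1.27 ± 0.17, SE, adjusted p = 0.0013 by edgeR), and Bhlhe40, another transcriptional repressor, from 20.4, 17.7 and 21.9 to 52.0, 38.9 and 45.7. Per1 rose by a log2 fold change of 0.73, a call that was lost without any single library but DMSO 3 (adjusted p 0.0514 to 0.166). In the other direction, Ciart, a repressor of the CLOCK-BMAL1 dimer, fell from 9.56, 9.21 and 9.36 CPM to 2.61, 3.21 and 1.92, and Nfil3, which represses clock output genes, from 39.5, 45.4 and 34.0 to 15.5, 15.3 and 13.2. Other genes of the circadian clock were not called, with adjusted p = 0.0963 for Arntl (0.030 with the passage block) and 0.341 for Clock (0.033 with the block), 0.381 for Cry1, 0.455 for Cry2, 0.951 for Dbp and 0.883 for Per2.

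Mnt, a repressor that shares the partner MAX with MYC proteins, rose from 13.5, 17.0 and 22.8 CPM to 55.9, 63.6 and 60.7. Mxd4, of the same kind, rose from 3.97, 3.73 and 5.55 to 10.2, 8.99 and 8.99, a call lost without DMSO 1 or Torin1 1 (adjusted p 0.0669 to 0.0693). Hbp1 rose from 22.8, 20.0 and 20.4 to 66.4, 67.9 and 64.8, and Pdcd4, which inhibits the helicase eIF4A, from 14.5, 15.3 and 18.1 to 39.4, 50.0 and 43.5. Max itself had a log2 fold change of -0.24 (adjusted p = 0.258). Lima1, an actin-binding protein, was at 21.4, 17.1 and 21.0 CPM in DMSO and at 57.2, 55.6 and 66.3 with Torin1, and Fhl3 was at 21.6, 27.6 and 25.6 and at 73.4, 69.7 and 78.8. The somatostatin receptor Sstr2 rose from 2.43, 2.42 and 2.31 to 5.87, 5.78 and 6.62, and the cytokine Il6 from 5.59, 2.13 and 4.24 to 13.8, 11.8 and 10.8.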
